A study of Danio rerio with 6 samples.

Results

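Protein phosphatase 2A (PP2A) is a serine and threonine phosphatase built from a catalytic C subunit, a scaffold A subunit and a regulatory B subunit. The genes described here are 2 genes of the catalytic subunit, *ppp2ca* and *ppp2cb*, and 6 genes of the B55 family of B subunits, *ppp2r2ab*, *ppp2r2ba*, *ppp2r2bb*, *ppp2r2ca*, *ppp2r2cb* and *ppp2r2d*. They were chosen by gene name. Of the 8 names, 7 were found among the 31794 gene names of the transcript tables, and *ppp2r2ba* was not used there as a name. The 7 names belong to 17 named transcripts at 8 loci, and 6 unnamed transcripts, assembled from the reads, share these loci. The family was put together with results of these same pools known, since *ppp2r2ca*, *ppp2r2ab* and *ppp2r2d* are on the study's list of genes with altered introns and *ppp2r2ca* is on its list of differentially expressed genes. The values of these 3 genes are therefore given as a description, with no p-value. They do enter the counts of called genes and loci. A further locus that carries the name *ppp2r2ca*, on chromosome 1, is given with tests.

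The B subunit decides which proteins PP2A acts on and where. PP2A with a B55 subunit removes phosphates placed by cyclin-dependent kinases and helps cells to leave mitosis. During mitosis it is held back by Arpp19 and Ensa, small proteins that become inhibitors of PP2A-B55 once the kinase Mastl (Greatwall) has phosphorylated them. In mammals the genes of the alpha and delta forms of B55 (*PPP2R2A* and *PPP2R2D*) are widely expressed, while those of the beta and gamma forms (*PPP2R2B* and *PPP2R2C*) are known mainly from the brain. Zrsr2, the protein removed in this study, recognizes 3′ splice sites and takes part in the minor spliceosome, which removes the rare U12-type introns.

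RNA-Seq was made from 6 pools of 10 zebrafish embryos of strain Tab5 at 3 days post fertilization (dpf). The heads had been cut off for genotyping, so that the pools hold bodies only. The 3 mutant pools were homozygous for the zrsr2hg129 allele (zrsr2hg129/hg129, a frameshift made by CRISPR/Cas9) and came from clutches 3, 4 and 7 of heterozygous parents, for which the labels title them het clutch. The 3 wild-type (WT) pools were taken from the clutches numbered 12, 13 and 15, whose parents were WT siblings. The mutants descend from 1 allele and received maternal *zrsr2* mRNA, and clutch, cross and RNA integrity, which was lower in every mutant pool, cannot be told apart from the genotype. Each pool came from a clutch of its own. Each p-value therefore sets the genotype difference against a spread between pools that joins clutch, embryos drawn and library preparation.

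The deposited tables give FPKM, the number of fragments scaled by transcript length and by the mapped fragments of the library, and the mean read depth of each transcript. Read depth times transcript length came to 8.85 to 9.17 gigabases in mutant pools and 7.50 to 9.26 gigabases in WT pools. The number of reads behind an FPKM is not listed and was not estimated from the depth, so no counting error is given. The FPKM of the targeted gene *zrsr2* was 0.513, 0.793 and 1.06 in mutant clutches 3, 4 and 7 and 1.38, 1.5 and 1.39 in WT clutches 12, 13 and 15. Every mutant pool was thus below every WT pool as deposited, a separation shared by 26.8% of all genes. Once the pools were scaled, *zrsr2* changed by -0.62 on the log2 scale, with 0.23 as its standard error. Limma gave this difference an adjusted p of 0.173, so *zrsr2* was not called. The summed FPKM of 5 skeletal muscle markers, as deposited, was 21357 to 23641 in mutant pools and 16907 to 21312 in WT pools, so that the lowest mutant pool was just above the highest WT pool, with 0 of the 5 called. After scaling, their median log2 fold change was 0.51, with 0 of them negative. The summed FPKM of 11 neuron markers was 107 to 121 in mutant pools and 110 to 139 in WT pools, also with 0 called. As deposited, *elavl3*, *gad1b* and *chata* were lower in all mutant pools, as were 26.8% of all genes, and the others overlapped. For *chata* the gap was slight, at 4.118 in mutant clutch 4 and 4.119 in WT clutch 12. Nothing is read from these separations. Of the 11, 5 had a negative log2 fold change, and the median was 0.0064. Markers of head tissue were low, with 5 forebrain and midbrain markers at a sum of 2.57 to 3.61 in mutant pools and 1.77 to 2.93 in WT pools, and 5 eye markers below 0.740 in each pool. No sample with heads was there to compare. As deposited, *dlx2a* and *gnat2* were higher in all mutant pools, as were 6.05% of all genes, and the other head markers overlapped. The median log2 fold change was 0.75 for the 4 brain markers tested and 0.38 for the 3 eye markers tested, with 0 called. In whole bodies, fewer cells of a type and less RNA per cell cannot be told apart.

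Fold changes compare mutant with WT pools on log2(FPKM + 0.1), after scaling of each pool by a median-of-ratios factor. Over all genes the median of these values was 0.010, and it was -0.19 without scaling, the deposited FPKM being lower overall in the mutant pools. Calling a gene needed both a log2 fold change of 1 or more in size and a p under 0.05 from limma, adjusted by Benjamini-Hochberg over 19978 genes. By named transcripts, 0 of the 7 genes were called, where 2.79% of all genes were. Of the 4 genes given with a test, 1 (*ppp2r2bb*) had an unadjusted p below 0.05 from limma, where 23.0% of all genes did. In deposited FPKM, every mutant pool lay under every WT pool for 3 of the 7 genes (26.8% of all genes) and over them for 1 (6.05%). Those 3 include *ppp2r2ab* and *ppp2r2d*, so nothing is read from it. The median log2 fold change of the 7 genes was -0.38, which is the value of *ppp2r2d* itself, against 0.010 for all genes tested. Nothing is read from this median either, since *ppp2r2ca*, *ppp2r2ab* and *ppp2r2d* are among the 7.

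The name *ppp2r2ca* was carried by 2 loci. The first lies on chromosome 14 (GRCz11, minus strand, 52522717 to 52552978) and holds 2 named transcripts, and the second lies on chromosome 1 (plus strand, 14283692 to 14307807) and holds 1. The genes next to each locus were set beside the gene order of RefSeq on GRCz12tu, taking 6 genes on each side. The chromosome 14 locus, between *tcerg1a* and GPR151 on one side and *rpl26* and *atp6v0e1* on the other, shared 8 neighbours with the gene that RefSeq calls *ppp2r2ba*. The chromosome 1 locus shared 9 neighbours, among them *pde5aa* and *wfs1a*, with the gene that RefSeq calls *ppp2r2ca*. No other PP2A gene of these types shared a neighbour with either locus. The chromosome 14 locus is thus the place of *ppp2r2ba* in the RefSeq gene order. The loci are kept apart below, except where the named transcripts of *ppp2r2ca* are taken as a whole.

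The catalytic subunit genes carry the enzyme's active site. *ppp2cb* (chromosome 10, plus strand, 7593185 to 7617748) had the highest level of the family, with an FPKM of 56.2, 62.2 and 59.7 in mutant clutches 3, 4 and 7 and 61.4, 66.3 and 61.1 in WT clutches 12, 13 and 15. The genotypes overlapped, with a log2 fold change of 0.14 (standard error 0.10, adjusted p = 0.463 from limma). *ppp2ca* (chromosome 14, minus strand, 49118860 to 49133426) had an FPKM of 2.35, 3.56 and 3.85 in the mutant pools and 3.95, 4.12 and 3.69 in the WT pools. Mutant clutch 3 was the lowest, the other mutant pools lay close to WT, and the fitted log2 fold change of -0.074 was smaller than its standard error of 0.17 (limma, adjusted p = 0.831). Without mutant clutch 3 the log2 fold change of *ppp2ca* was 0.081. Of the summed FPKM of these 2 genes, *ppp2cb* held 96.0%, 94.6% and 93.9% in the mutant pools and 94.0%, 94.1% and 94.3% in the WT pools, so that the balance between them overlapped between genotypes.

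A further catalytic gene stood in the tables as *zgc:56064* on chromosome 21, a place that shares 8 neighbours with the gene RefSeq calls *ppp2cab*. It is no member by name and was looked at after its values had been seen. Its named transcripts had an FPKM of 37.8, 13.7 and 16 in mutant clutches 3, 4 and 7 and 31.9, 29.3 and 36.9 in the WT pools. The lower values of mutant clutches 4 and 7 went with an unnamed form in each, at 15.7 in clutch 4 alone and at 15.3 in clutch 7 alone, both with 8 exons where the main named transcript has 7. The whole locus had 37.8, 29.3 and 31.2 in the mutant pools and 31.9, 29.3 and 36.9 in the WT pools, a log2 fold change of 0.22 (standard error 0.17, adjusted p = 0.436 from limma over whole loci). At the level of the locus, this gene thus came second to *ppp2cb* among the catalytic genes in every pool.

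**Figure D1:**
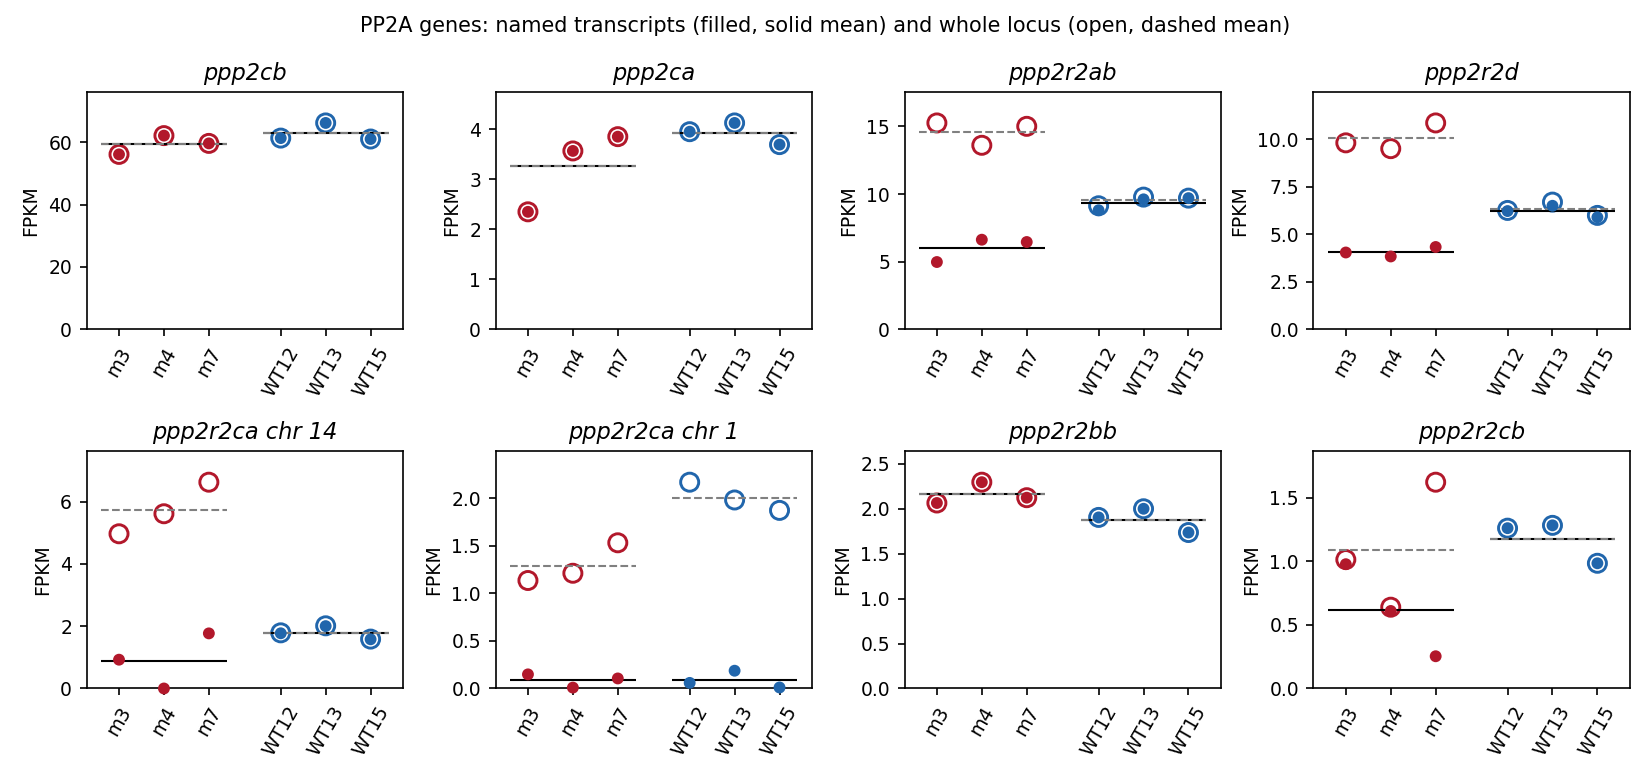
FPKM of the 8 PP2A loci in each pool, with mutant clutches 3, 4 and 7 (m, red) left of WT clutches 12, 13 and 15 (blue). Filled points and solid lines are the named transcripts and their mean, open points and dashed lines are the whole locus and its mean. At *ppp2r2ab*, *ppp2r2d* and the chromosome 14 locus of *ppp2r2ca* the open points of all mutant pools lie above WT, while the filled ones of *ppp2r2ab* and *ppp2r2d* lie below.

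In WT pools, the named transcripts of the family were ordered by mean FPKM as *ppp2cb* (62.9 ± 2.90, SD, n = 3), *ppp2r2ab* (9.37 ± 0.493), *ppp2r2d* (6.20 ± 0.304), *ppp2ca* (3.92 ± 0.218), *ppp2r2bb* (1.88 ± 0.134), *ppp2r2ca* (1.87 ± 0.301) and *ppp2r2cb* (1.18 ± 0.166). Among neighbours in this order, *ppp2r2bb* and *ppp2r2ca* overlapped and the others did not. By named transcripts, *ppp2r2ab* (alpha) and *ppp2r2d* (delta) were thus higher than the beta and gamma forms listed here in the headless WT bodies. In mutant pools the order of the named transcripts was the same, with overlaps between *ppp2r2d* (4.07 ± 0.250, SD, n = 3) and *ppp2ca* (3.25 ± 0.798) and between *ppp2r2ca* (0.986 ± 0.936) and *ppp2r2cb* (0.613 ± 0.362). In these orders *ppp2r2ca* joins the named transcripts of both its loci. By whole loci the chromosome 14 locus of *ppp2r2ca* had rank 4 in the mutant pools, above *ppp2ca*, and rank 7 in the WT pools. The chromosome 1 locus had rank 7 in the mutant pools (1.29 ± 0.210, SD, n = 3) and rank 5 in the WT pools (2.01 ± 0.150, SD, n = 3). In the WT pools, *ppp2r2bb*, which lies between these 2 loci in rank, overlapped with both. In the mutant pools the chromosome 1 locus overlapped with *ppp2r2cb*. The order among these overlapping loci is thus not settled.

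Summed over the B55 loci, the deposited FPKM of the named and of the unnamed transcripts went in opposite directions between genotypes. That was not so at every locus. The unnamed form of the chromosome 1 locus of *ppp2r2ca* was lower in all mutant pools, and *ppp2r2bb* has no unnamed form. The sums are not scaled, and deposited FPKM is lower overall in the mutant pools. The named transcripts of the 5 B55 names summed to an FPKM of 13.1, 13.4 and 15.0 in mutant clutches 3, 4 and 7 and 20.0, 21.6 and 19.9 in WT clutches 12, 13 and 15. The unnamed transcripts of the same loci summed to 21.1, 19.5 and 22.7 in the mutant pools and 2.49, 2.16 and 1.97 in the WT pools. The whole loci therefore came to 34.2, 32.9 and 37.8 in the mutant pools, all above the 22.5, 23.7 and 21.9 of the WT pools. Most of the unnamed FPKM of each mutant pool came from 1 form at each of 3 loci. These are the chromosome 14 locus of *ppp2r2ca*, *ppp2r2ab* and *ppp2r2d*, the genes chosen with these pools known.

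These 3 forms have the same build relative to a named transcript of their locus. Each has 1 exon fewer, yet is longer, which is also the build of an RNA that keeps an intron between neighbouring exons. At the chromosome 14 locus of *ppp2r2ca* the unnamed form has 8 exons and 6418 nucleotides, and the named transcript ENSDART00000170107 with the same ends has 9 exons and 4409 nucleotides, so that the extra sequence is 2009 nucleotides long. At *ppp2r2d* the form has 9 exons and 2564 nucleotides, against 10 exons and 2267 nucleotides of ENSDART00000172175 with the same ends, an extra 297 nucleotides. At *ppp2r2ab* the form has 10 exons and 3323 nucleotides, against 11 exons and 3193 nucleotides of ENSDART00000138334, and starts 11 bases further upstream, which leaves an extra 119 nucleotides. The extra length is a multiple of 3 at *ppp2r2d*, with a remainder of 0, and not at the other 2 loci, where the remainder is 2. Exon coordinates were not used here, so whether the extra sequence is an intron was not tested.

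**Figure D2:**
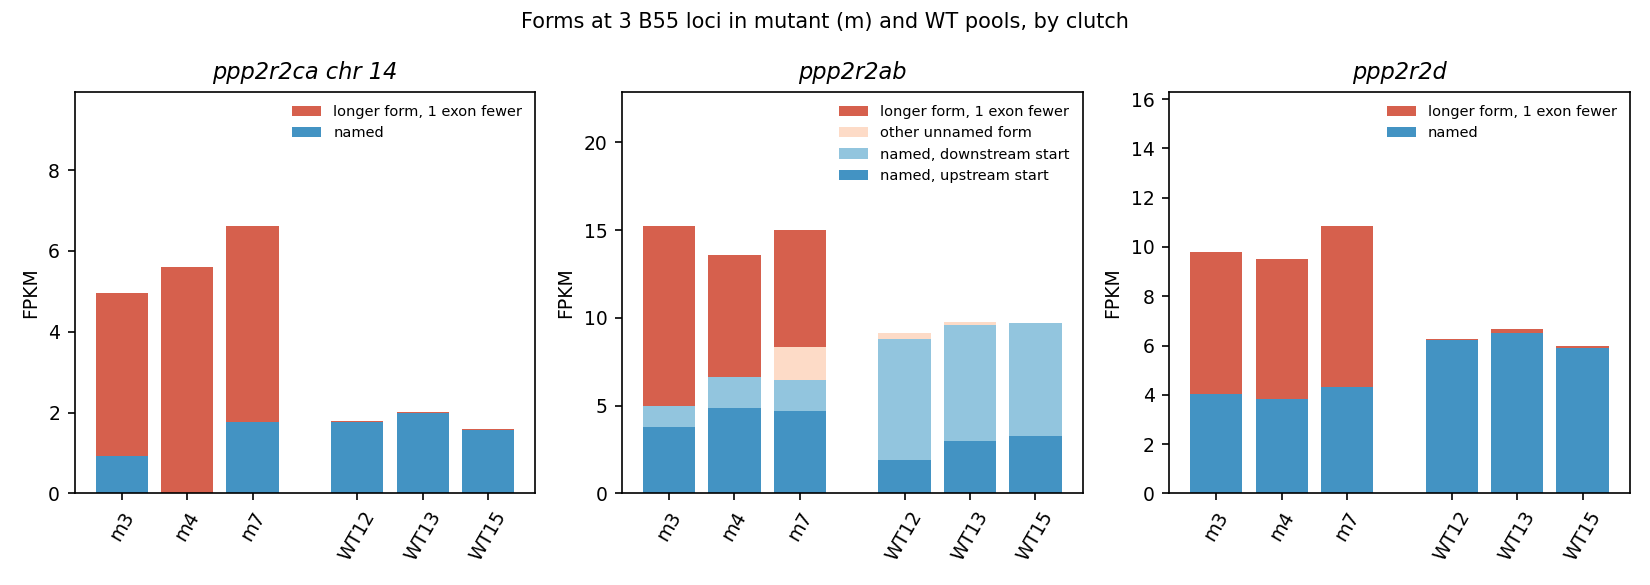
FPKM of the forms at 3 B55 loci, stacked for each pool, with mutant clutches (m) left of WT clutches. Red is the unnamed longer form with 1 exon fewer, blue the named transcripts and pale pink a further unnamed form of *ppp2r2ab*. The red form holds 44.4% or more of the locus in each mutant pool and at most 2.90% in WT pools.

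The chromosome 14 locus of *ppp2r2ca*, the place of the beta form *ppp2r2ba*, differed most. Its named transcripts had an FPKM of 0.924, 0 and 1.77 in mutant clutches 3, 4 and 7 and 1.77, 2.0 and 1.58 in WT clutches 12, 13 and 15. Mutant clutch 4 is listed at 0 and mutant clutch 7 lay within the WT range, so that the genotypes overlapped. The longer form had 4.04, 5.61 and 4.85 in the mutant pools, against 0.0145, 0.0104 and 0.00678 in the WT pools. It held 81.4% of the locus in mutant clutch 3, the whole of it in clutch 4 and 73.3% in clutch 7, against 0.812%, 0.519% and 0.427% in the WT pools. The whole locus came to 5.73 ± 0.835 (SD, n = 3) in mutants and 1.79 ± 0.213 (SD, n = 3) in WT, a ratio of 3.19, and its log2 fold change was 1.83 (standard error 0.15). That of the named transcripts of the locus was -1.5 (standard error 1.05), a value that rests on mutant clutch 4. For the name *ppp2r2ca* as a whole it was -1.42 (standard error 1.05), and -0.11 without mutant clutch 4.

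*ppp2r2d* (chromosome 12, minus strand, 41723040 to 41759747), the delta form, has a single named transcript. Its FPKM was 4.04, 3.83 and 4.33 in the mutant pools and 6.22, 6.50 and 5.89 in the WT pools, so that all mutant pools were lower (log2 fold change -0.38, standard error 0.13). The longer form had 5.77, 5.67 and 6.53 in the mutant pools and 0.0322, 0.194 and 0.10 in the WT pools. Its share of the locus was nearly the same in all mutant pools, at 58.8%, 59.7% and 60.1%, against 0.514%, 2.90% and 1.67% in the WT pools. The whole locus had 10.1 ± 0.710 (SD, n = 3) in mutants and 6.31 ± 0.354 (SD, n = 3) in WT, a log2 fold change of 0.88 (standard error 0.12).

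*ppp2r2ab* (chromosome 10, plus strand), an alpha form, has 2 named transcripts of measurable level that end together at 18907666 and start 1494 bases apart. The one with the upstream start, ENSDART00000138334, had an FPKM of 3.79, 4.86 and 4.68 in the mutant pools and 1.91, 3.00 and 3.27 in the WT pools. The one with the downstream start, ENSDART00000024127, had 1.18, 1.76 and 1.77 in the mutant pools and 6.88, 6.59 and 6.42 in the WT pools. As deposited, the upstream one was higher and the downstream one lower in all mutant pools. How many of all transcripts separate in this way was not counted, so nothing is read from it. Of the named FPKM, the downstream start held 23.7%, 26.5% and 27.4% in the mutant pools and 78.2%, 68.6% and 66.2% in the WT pools. This share leaves out the unnamed forms. Reads that fit several forms were divided by estimation, so whether the use of the starts differed was not tested. The longer form had 10.3, 6.98 and 6.66 in the mutant pools and 0, 0.00592 and 0 in the WT pools. It starts upstream like ENSDART00000138334, and no form with the downstream start and 1 exon fewer stands in the tables. A second unnamed form with 11 exons reached 1.90 in mutant clutch 7, and was listed at 0 in mutant clutches 3 and 4 and at 0.330, 0.158 and 0 in the WT pools. The whole locus had 14.6 ± 0.891 (SD, n = 3) in mutants and 9.53 ± 0.350 (SD, n = 3) in WT. Its log2 fold change was 0.83 (standard error 0.12), against -0.42 (standard error 0.12) for the named transcripts.

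By whole loci, 1 of the 8 was called, the chromosome 14 locus of *ppp2r2ca*, where 4.07% of all 25349 loci were. All mutant pools were above all WT pools at 4 loci (8.5% of all loci) and below them at 1 (25.1%). The called locus and 3 of the 4 higher loci are those of *ppp2r2ca*, *ppp2r2ab* and *ppp2r2d*, which were chosen with these pools known, so nothing is read from these counts. The other higher locus is *ppp2r2bb*.

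Forms of this build were not particular to PP2A. Over the whole annotation, 139 pairs were found of a named transcript and an unnamed form with ends within 50 bases, 1 exon fewer, greater length and a summed mean FPKM of at least 1. The share of the longer form was higher in all mutant pools than in all WT pools for 40 pairs (28.8%), and higher by at least 50 percentage points on average for 19 (13.7%). At some other pairs, such as that of *vwa5a*, it was lower in all mutant pools. The forms were assembled from the reads, so a form near 0 in WT is among the pairs through the mutant pools. Some genes also gave several pairs. These percentages therefore do not measure how often such forms go up in mutants. The pairs of *ppp2r2ca*, *ppp2r2ab* and *ppp2r2d* were 3 of the 19, a count from which nothing is read since they were chosen with these pools known, with mean shares of 85.7%, 63.6% and 59.6% in mutants and 0.601%, 0.0655% and 1.70% in WT.

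**Figure D3:**
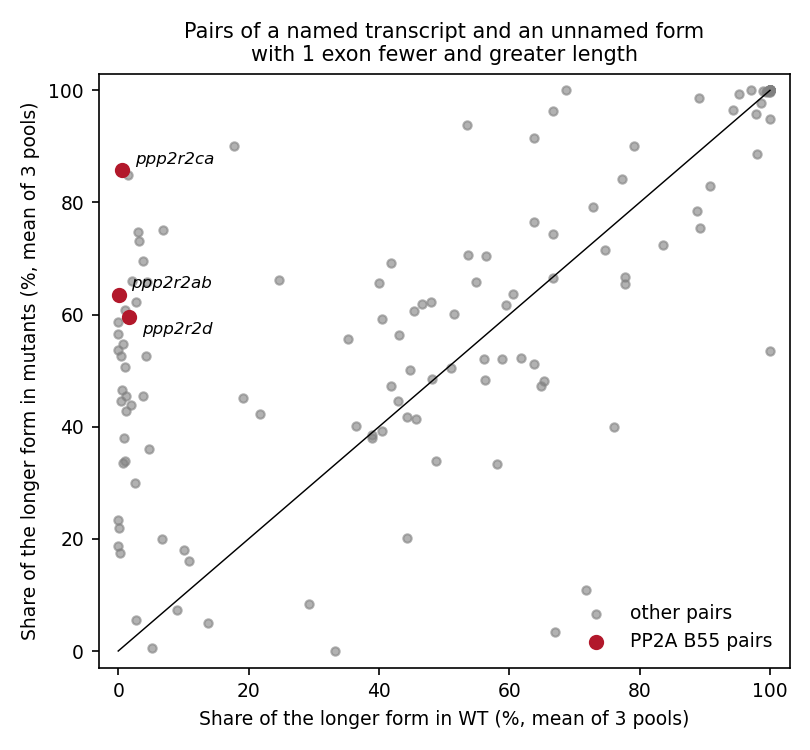
Mean share of the longer form in mutant pools against that in WT pools, in percent, for 139 pairs of a named transcript and an unnamed longer form with 1 exon fewer. The line marks equal shares, and the 3 B55 pairs (red) lie at 59.6% to 85.7% in mutants and under 2% in WT, among a strip of other pairs with low WT shares.

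The other B55 genes showed no such form. *ppp2r2bb* (chromosome 21, plus strand, 41649336 to 41777754), a beta form, had an FPKM of 2.06, 2.29 and 2.12 in mutant clutches 3, 4 and 7 and 1.90, 2.0 and 1.73 in WT clutches 12, 13 and 15. All mutant pools were higher, but the difference was small and not called (log2 fold change 0.41, standard error 0.14, adjusted p = 0.146 from limma). Its main transcripts have different starts. The more upstream one, ENSDART00000181539, held 31.7%, 42.9% and 27.0% of the gene in the mutant pools and 33.1%, 51.4% and 16.7% in the WT pools, so that WT pools alone covered the range of the mutants (exact permutation test, two-sided, p = 1, where 3 pools against 3 allow no p below 0.1).

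*ppp2r2cb* (chromosome 14, minus strand, 21204541 to 21219659), a gamma form, had an FPKM of 0.977, 0.609 and 0.253 in its named transcripts in the mutant pools and 1.26, 1.28 and 0.984 in the WT pools. All mutant pools were lower as deposited, before scaling, with mutant clutch 3 just below WT clutch 15. The log2 fold change after scaling was -0.77 (standard error 0.44, adjusted p = 0.345 from limma). The low value of mutant clutch 7 went with an unnamed form of the same 10 exons that is 52 nucleotides longer. This form had an FPKM of 0.0363, 0.0295 and 1.37 in the mutant pools, was listed at 0 in all WT pools and held 84.4% of the locus in mutant clutch 7. Without mutant clutch 7, its mean share was higher by 4.11 percentage points in mutants, in place of 30.9. The whole locus overlapped, at 1.01, 0.639 and 1.62 in the mutant pools and 1.26, 1.28 and 0.984 in the WT pools (log2 fold change 0.030, standard error 0.33, adjusted p = 0.961 from limma over whole loci). Without mutant clutch 7, the log2 fold change of the named transcripts was -0.31.

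The chromosome 1 locus of *ppp2r2ca*, the other gamma form, is held almost wholly by an unnamed transcript in both genotypes. This transcript has 9 exons and 3658 nucleotides, against 11 exons and 3397 nucleotides of the named ENSDART00000017679. It had an FPKM of 0.987, 1.20 and 1.43 in the mutant pools and 2.11, 1.79 and 1.86 in the WT pools, or 86.9%, 99.2% and 93.1% of the locus in mutants and 97.3%, 90.6% and 99.4% in WT. The shares overlapped (exact permutation test, two-sided, p = 0.6). The level was lower in all mutant pools, with a log2 fold change of -0.43 (standard error 0.19, adjusted p = 0.328 from limma over 43672 transcripts, of which 1.22% were called), and was not called. Taken whole, the locus had a value of -0.40 (log2, standard error 0.16), and limma over whole loci gave an adjusted p of 0.175. By whole loci as deposited, those on chromosome 14 (*ppp2r2ba* of RefSeq) and chromosome 21 had higher values in all mutant pools. The chromosome 1 locus had lower ones, and *ppp2r2cb* overlapped. By named transcripts, the chromosome 14 locus overlapped and *ppp2r2cb* was lower in all mutant pools. The chromosome 14 locus was chosen with these pools known and the other differences were not called. No shared or opposed direction of the beta and gamma types is therefore read from these values. The summed neuron markers overlapped between genotypes, and their part in these levels was not tested.

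*ppp2r2aa* on chromosome 8, the second alpha gene of the B55 family and no member by name, had an FPKM of 2.34, 2.68 and 2.57 in the mutant pools and 2.96, 2.60 and 2.79 in the WT pools (log2 fold change 0.083, standard error 0.13, adjusted p = 0.724 from limma). It holds a single transcript of 10 exons, and no unnamed form.

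The genes around the family were taken as a list of 42 names, of scaffold subunits, other B subunits, striatins, inhibitors and other regulators and the related phosphatases 4 and 6. Of these, 38 were found, 35 were tested and 0 were called by limma, where 2.79% of all genes were. Without adjustment, 9 of the 35 had a p below 0.05 from limma, a share close to the 23.0% of all genes. The log2 fold change was positive in 24 and negative in 11, with a median of 0.15 against 0.010 for all genes. With the unnamed transcripts of their loci added to each name (a fit over 20243 sets of loci joined by gene name), 38 were tested, 0 were called and the median was 0.10.

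The scaffold subunit, which holds the complex together, is encoded by *ppp2r1ba* and *ppp2r1bb*. *ppp2r1ba* had an FPKM of 35.8, 41.6 and 39.3 in the mutant pools and 44.0, 50.7 and 46.8 in the WT pools. All mutant pools were lower as deposited, and after scaling the fold change was near 0, at -0.053 on the log2 scale (standard error 0.10, adjusted p = 0.795 from limma). Of the 6 tested genes of the B56 family, which direct PP2A to other substrates than B55, 4 had positive and 2 negative log2 fold changes, and the most abundant by named transcripts, *ppp2r5ea*, had 0.18 (standard error 0.12, adjusted p = 0.406 from limma). *ppp2r5eb*, too low by name to be tested, was higher than *ppp2r5ea* by its locus, with a mean FPKM of 17.8 in mutants and 14.7 in WT (log2 fold change 0.46, adjusted p = 0.0677 from limma with unnamed transcripts added). *ppp2r3c*, the most abundant gene of the third B family (B double prime) by named transcripts, had -0.037 (adjusted p = 0.905 from limma). With unnamed transcripts added, *ppp2r3a* was the more abundant of the pair in mutants and level with it in WT, at a mean of 8.19 in mutants and 7.19 in WT, against 6.09 in mutants and 7.18 in WT for *ppp2r3c*. *strn3*, the most abundant striatin by either measure, a scaffold of the complex in which PP2A joins STE20-type kinases, had 0.36 (adjusted p = 0.136 from limma).

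The list holds 5 found genes of Mastl and the Arpp19 and Ensa inhibitors, which are grouped here after their values were seen. By named transcripts, *mastl*, *arpp19a* and *arpp19b* had positive and *ensaa* and *ensab* negative log2 fold changes, with 0 of them called. *mastl*, the kinase, had an FPKM of 2.10, 1.94 and 1.88 in the mutant pools and 1.71, 1.78 and 1.75 in the WT pools (log2 fold change 0.38, adjusted p = 0.192 from limma). *arpp19b* had 11, 16.4 and 16.9 in the mutant pools and 7.62, 11.1 and 9.14 in the WT pools, overlapping only between mutant clutch 3 and WT clutch 13. Its log2 fold change of 0.88 (standard error 0.19) missed both thresholds, with an adjusted p of 0.0558 from limma that was 0.0203 to 0.167 over the alternatives. With the unnamed transcripts of its locus added, all mutant pools were higher, and the log2 fold change of *arpp19b* was 0.74 (standard error 0.14, adjusted p = 0.0203 from limma), under the fold needed for a call. *arpp19a* had 5.63, 9.84 and 8.39 in the mutant pools and 5.95, 6.56 and 6.21 in the WT pools, with mutant clutch 3 the lowest of all (log2 fold change 0.53, standard error 0.18, adjusted p = 0.143 from limma). *ensaa*, of the same inhibitor family, had 0.954, 0.998 and 1.68 in the mutant pools and 3.03, 2.25 and 2.16 in the WT pools, a log2 fold change of -0.79 (standard error 0.25, adjusted p = 0.131 from limma). *seta*, the most abundant of the regulators by named transcripts and a PP2A inhibitor, had 69.5, 99.1 and 75.3 in the mutant pools and 78.9, 91.1 and 90.9 in the WT pools, and the fold change was 0.11 on the log2 scale (adjusted p = 0.666 from limma).

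The genes whose pattern over the 6 pools was most like that of the named transcripts of *ppp2r2ca*, among 11787 genes averaging 1 FPKM or more, were *eps8l3b* (Pearson's r = 0.996 on the log2 scale), *acot14* (0.995) and *fastkd3* (0.990). All of them shared the low value of mutant clutch 4, at an FPKM of 0.310, 0.0190 and 0.0106, while the other pools had 1.93 or more. The likeness therefore rests on 1 pool.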

How the data were processed

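After removal of low-quality reads, the authors mapped to GRCz11 using HISAT2 (version 2.2.1.0). They quantified Ensembl transcripts and others assembled from the reads with StringTie 2.0.3. The deposited values are StringTie's FPKM, and the deposited coverage is the mean read depth of each transcript, unscaled. Reads that fit several forms were divided between them by estimation. Libraries were made from total RNA with a stranded kit.

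For a gene, FPKM was summed over all transcripts carrying its name. A locus is a StringTie gene identifier, and its FPKM includes unnamed transcripts. Whole loci were fitted singly (25349 loci) and, as an alternative, joined by gene name (20243 sets of loci). Genes, loci and transcripts averaging 0.1 FPKM or more entered the fit, run in R 4.3.3 by limma 3.58.1 (trended eBayes, two-sided). The fit was tested on simulated data with larger log2 changes than those of most genes described here. That test says nothing on small changes. Shares were compared with exact permutation tests. Other steps used Python 3.11.15, pandas 2.3.3, numpy 2.4.6, scipy 1.17.1 and matplotlib 3.10.9.

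The members and lists were chosen with earlier results of these data known. Named are all members, called genes of the PP2A list and, for the scaffold, B56, B double prime, striatin and regulator roles, the gene most abundant by named transcripts. *ppp2r2aa*, *zgc:56064*, *mastl*, *arpp19a*, *arpp19b*, *ensaa*, *ensab*, *strn4*, *ppme1*, *ppp2r5eb* and *ppp2r3a* were named after their values were seen. Alternatives were other pseudocounts, filters, scaling, whole loci, shares of bases and each pool left out; keeping the loci of 1 name apart was added after seeing the data. Red blood cell markers overlapped between genotypes (summed FPKM 587 to 1300 in mutants and 756 to 1307 in WT). Sequences were not used here.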

Additional observations from a re-analysis of the deposited data

How the results depend on the processing

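The count of 558 called genes was 282 with a pseudocount of 1 FPKM (71 higher and 211 lower in mutants), 905 without scaling (773 lower) and 943 by whole loci joined by gene name (353 higher and 590 lower). With a mean FPKM of at least 1, 117 genes were called higher in place of 176. With each pool left out, 94 to 513 genes were called, 29 to 186 of them higher and 64 to 327 lower, and the count was lowest without WT clutch 12 (94), WT clutch 13 (104), mutant clutch 7 (217) and WT clutch 15 (256). The PP2A list had 0 calls, but 1 without scaling (*strn4*) and 1 without mutant clutch 3 (*ensab*), a range of 0 to 1 with each pool left out.

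By whole loci joined by gene name, a fit over 20243 sets of loci, the log2 fold changes turned to 0.81 for *ppp2r2ab*, 1.06 for *ppp2r2ca*, 0.011 for *ppp2r2cb* and 0.86 for *ppp2r2d*, since the unnamed forms are then added. This joined fit was scaled by factors of its own, while the fit over 25349 single loci used the factors of the named genes. The fit over single loci gave 0.83 for *ppp2r2ab*, 1.83 for the chromosome 14 locus, 0.030 for *ppp2r2cb* and 0.88 for *ppp2r2d*. Without scaling they were -0.084 for *ppp2cb*, -0.64 for *ppp2r2ab* and -0.60 for *ppp2r2d*. With each pool left out, the log2 fold change was -0.18 to 0.081 for *ppp2ca* (0.081 without mutant clutch 3), -2.23 to -0.11 for *ppp2r2ca* and -1.20 to -0.31 for *ppp2r2cb*. The pseudocount moved *ppp2r2ca*, listed at 0 in 1 pool at its main locus, to -0.52 at 1 FPKM and -2.23 at 0.01 FPKM.

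The share of the unnamed form was higher in mutants by 60.6 percentage points for *ppp2r2d* by bases, in place of 57.9 by FPKM. With each pool left out, the difference was 57.3 to 58.5 for *ppp2r2d*, 52.4 to 60.4 for *ppp2r2ab* and 76.8 to 90.1 for the chromosome 14 locus of *ppp2r2ca*. It was -5.75 to 0.40 for the chromosome 1 locus, positive only without mutant clutch 3. That of the upstream start of *ppp2r2bb* was 0.14, and -8.40 to 8.99 with each pool left out (-4.38 without mutant clutch 4, -0.18 without WT clutch 12 and -8.40 without WT clutch 15). No paired analysis was possible because the labels number the pools by clutch and no clutch gave both genotypes. Read numbers are not listed and were not estimated, so the precision of FPKM values near 0 is not known here.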

Other observations

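Several regulators of PP2A were carried mainly by unnamed transcripts, so that their names understate them. *ppme1*, a methylesterase that acts on the catalytic subunit, was near 0 by name, while its locus had a mean FPKM of 16.7 in mutants and 20.8 in WT (log2 fold change -0.12, adjusted p = 0.646 from limma over loci joined by gene name, as for the locus values that follow). *strn4*, a striatin, had 0.0974, 0.0485 and 0.332 in mutant clutches 3, 4 and 7 and 0.905, 0.80 and 1.81 in WT clutches 12, 13 and 15 by name, a log2 fold change of -2.20 (standard error 0.48, adjusted p = 0.0590 from limma, and 0.0418 to 0.914 over the alternatives). By its whole locus the fold change of *strn4* was -0.032 on the log2 scale (adjusted p = 0.914 from limma). *ensab*, a relative of *ensaa*, had 0.328, 0.0784 and 0.0684 in the mutant pools and 0.802, 0.758 and 0.597 in the WT pools by name (log2 fold change -1.62, adjusted p = 0.0933 from limma, and 0.0245 to 0.544 over the alternatives), and -0.22 by its whole locus (adjusted p = 0.544 from limma).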
